A study of Salvelinus alpinus with 144 samples.

Results

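mRNA levels of small benthic embryos were set against those of planktivorous, limnetic embryos of Arctic charr (Salvelinus alpinus) at 150 τs, the stage at which the pharyngeal skeleton begins to form. The comparison took 18 of the 72 mRNA libraries, and the study holds 144 libraries with the small RNA libraries counted: 9 libraries were SB×SB embryos of the families H1502, H1503 and H1504, and 9 were PL×PL embryos of the families H1509, H1513 and H1516. They were chosen by their labels alone. SB×SB stands for a small benthic mother crossed with a small benthic father, PL×PL for a planktivorous mother and father, and the 2 hybrid cross-types are written with the mother first as SB×PL and PL×SB. The parents were wild fish of Lake Thingvallavatn in Iceland, no line or allele was introduced, and the embryos were all reared in 1 common environment in cold, dark water. Each library was 1 whole embryo. The 3 embryos of a family, called A, B and C, were siblings from the same cross, so the independent crosses were 3 on each side. The labels give each letter as a sequencing batch for both kinds of library, whereas the study's methods describe batches for the small RNA libraries and mRNA libraries sequenced together. Other siblings of the same families were sampled at 200 τs and serve here only to show whether a difference at 150 τs was also seen later. A τs is a unit of developmental time, the time in which 1 somite pair forms at the rearing temperature.

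Small benthic charr have a blunt snout and a short lower jaw and feed on the bottom, whereas planktivorous charr have a terminal mouth and feed in open water. The head differences trace back to the jaw, hyoid and gill arch cartilages, which are built by neural crest cells in the embryo. Embryos of separate crosses also differ by the alleles that their own parents carried and by what each mother put into her eggs, so a difference between cross-types has to be read against the difference between families.

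The libraries held 15124747 to 16936051 gene-assigned reads in SB×SB embryos (median 16155498) and 12837417 to 16547823 in PL×PL embryos (median 16050381). Of 42433 gene rows, 40311 had at least 10 reads over the 72 libraries and were tested, and levels are given as CPM, the counts of a row scaled to a common library size with TMM factors. Most rows, 37251 of them, carry only a LOC number, and a name or role is given below only where a source names the gene. Because the embryos were whole, fewer cells of a type and less RNA per cell cannot be told apart. Among the markers with a gene symbol, the cartilage and bone list had 17 measured members, the neural crest and pigment list 5 and the skeletal muscle list 5, whereas no row matched the symbols fixed for blood cells, retina or hatching enzymes.

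The libraries of letter A at 150 τs did not match their labels, and this touches every comparison below. Family profiles were built from 500 mRNAs that differed most between families at 200 τs, and each library at 150 τs was set against the profiles of all families. All 12 libraries of letter B and all 12 of letter C were most like their own family, whereas 1 of the 12 libraries of letter A was. Among the 18 libraries compared here, Pearson's r with the own family was 0.358 to 0.773 in letter B and 0.481 to 0.753 in letter C. These correlations are over mRNAs, of deviations from each mRNA's mean and not of the levels themselves, and are given as a description.

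Of the 6 letter A libraries in this comparison only the library labelled H1503-A was most like its own family (r = 0.613). The library labelled H1502-A was most like H1516 (r = 0.698, against -0.259 with its own family), and the one labelled H1504-A was most like H1509 (0.45, against -0.178). Conversely, the library labelled H1509-A was most like H1504 (0.691, against -0.19), the one labelled H1513-A was most like H1503 (0.596, against -0.26) and the one labelled H1516-A was most like H1502 (0.718, against -0.245). All 5 were thus most like a family of the other cross-type. At 200 τs all 12 libraries of each letter were most like their own family, with profiles taken from letters B and C at 150 τs.

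An index of cross-type pointed the same way. It is the mean log2 level of 15 mRNAs minus that of 14 mRNAs, chosen at 200 τs because all 9 SB×SB embryos lay above or below all 9 PL×PL embryos by at least 2-fold on average. In letters B and C at 150 τs it was 1.05 to 1.49 in SB×SB and -1.95 to -1.41 in PL×PL embryos. The letter A libraries labelled H1502, H1503 and H1504 had -1.55, 1.59 and -1.77, and those labelled H1509, H1513 and H1516 had 0.998, 1.15 and 1.53. The cause of this was not tested, and no library was moved to another group. Every library was kept under its label in the comparison of all 18, and the results are also given without letter A, with 6 embryos of each cross-type, a setting chosen after seeing these data.

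**Figure D1:**
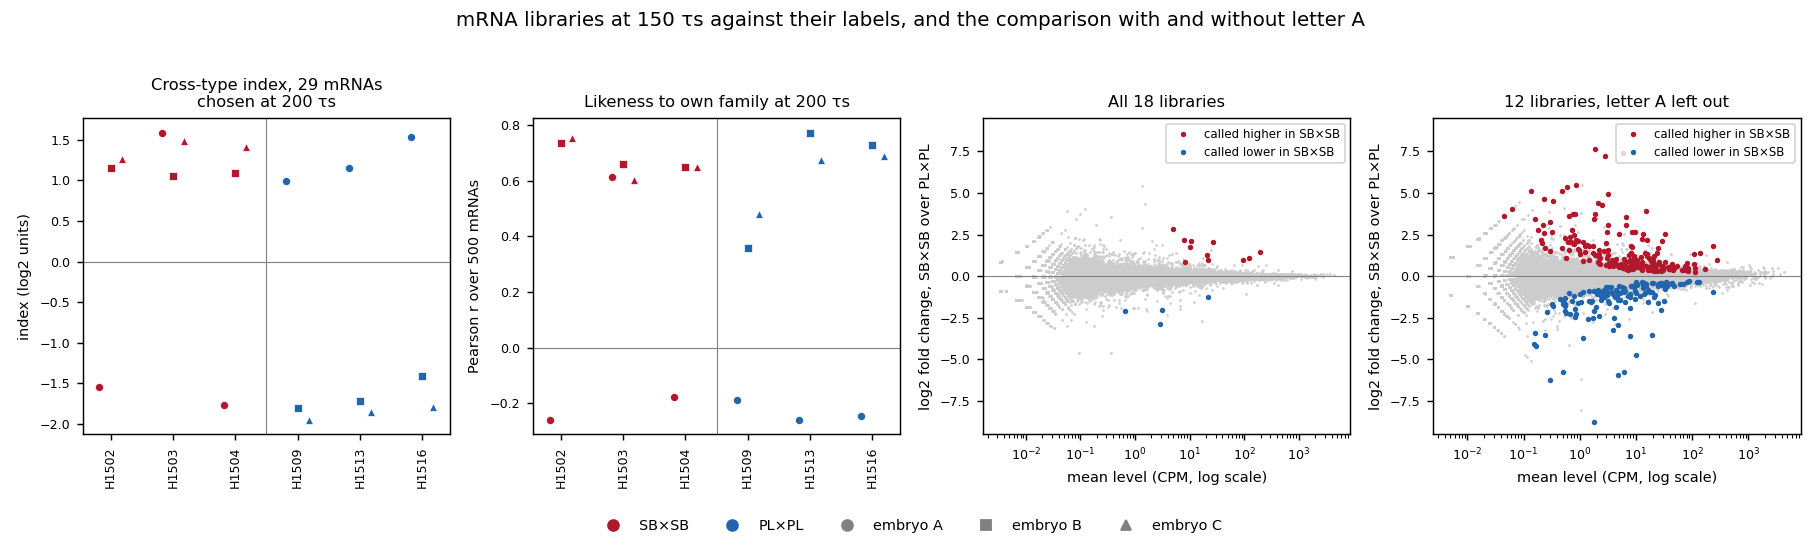
From left to right, the cross-type index (log2 units) and the Pearson correlation with the own family at 200 τs for the 18 libraries at 150 τs by labelled family, with SB×SB in red, PL×PL in blue and circles, squares and triangles for letters A, B and C, and then the log2 fold change against the mean level (CPM, log axis) of all 40311 mRNAs with all 18 libraries and without letter A. Of the 6 circles, 5 lie on the side of the other cross-type, and 15 mRNAs are called with all libraries, against 363 without letter A.

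With all 18 libraries under their labels, 15 mRNAs passed the test between SB×SB and PL×PL embryos, 11 higher and 4 lower in SB×SB (edgeR quasi-likelihood F-test, Benjamini-Hochberg adjusted p under 0.1). These were 0.0372% of the mRNAs tested, or 0.0273% higher and 0.00992% lower. At an unadjusted p under 0.05 there were 1553 mRNAs (3.85%). At 200 τs the same test called 7075 mRNAs (17.6%). With the letter added to the fit as a replicate block, 8 mRNAs were called at 150 τs, 5 higher and 3 lower, and all 8 were among the 15. When the counts of the 3 siblings were summed, so that the 3 families of each cross-type were the replicates, 1 mRNA was called.

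Without the letter A libraries at 150 τs the same test called 363 mRNAs (0.9% of those tested), 210 higher (0.521%) and 153 lower (0.38%) in SB×SB, and these included all 15. At an unadjusted p under 0.05 there were 4861 mRNAs (12.1%). The median log2 fold change was 0.95 among the 210 and -1.02 among the 153. In the other embryos of 200 τs, 122 of the 210 (58.1%) were called higher and 90 of the 153 (58.8%) lower, beside 8.7% and 8.85% of all mRNAs, and 0 were called in the opposite direction. The families were the same at both times.

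The count without letter A depended on the families. It was 138 without H1513, 168 without H1504, 215 without H1516, 228 without H1509, 771 without H1502 and 947 without H1503. Of the 363 mRNAs, 119 were among those called without H1513 and 130 among those called without H1504. With sibling counts summed per family 69 mRNAs were called, 41 higher and 28 lower, and 68 of them were among the 363. With the 12 embryos fitted alone, 149 were called.

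All 6 SB×SB embryos of letters B and C lay above all 6 PL×PL embryos for 223 mRNAs (0.553%) and below them for 161 (0.399%), on CPM scaled anew without letter A. Of those that were also called and reached 1 CPM in the higher cross-type, 80 were higher and 58 lower in SB×SB, and the ones named next have large changes or a gene symbol and were chosen after their values were seen. The letter A values were not used to choose them. LOC111982414, a row with no name, had the smallest adjusted p of those shown. It had 40.1 and 32.4 CPM in H1502-B and C, 32.1 and 31.1 CPM in H1503-B and C and 18.2 and 17.6 CPM in H1504-B and C, against 1.52 to 2.43 CPM in the 6 PL×PL embryos (log2 fold change 3.92 ± 0.39, adjusted p = 5.30e-10). The groups were far apart.

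At 200 τs LOC111982414 meets the rule that chose the mRNAs of the cross-type index, so its likeness to the index is no separate evidence. LOC111970262, LOC112073516 and LOC112069671, described below, meet that rule as well. Of the 6 letter A libraries of LOC111982414, 5 went against their labels. Those labelled H1502-A, H1503-A and H1504-A had 2.22, 41.02 and 1.31 CPM, and those labelled H1509-A, H1513-A and H1516-A had 21.4, 27.4 and 43.0 CPM. At 200 τs, where all libraries were most like their own family, the 9 SB×SB embryos had 11.2 to 37.3 CPM and the 9 PL×PL embryos 1.17 to 2.47 CPM without overlap (log2 fold change 3.62, adjusted p = 7.63e-05). The 18 hybrid embryos at 150 τs had 1.60 to 40.2 CPM.

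Other rows were near zero in PL×PL embryos. LOC112080863 had 3.59 to 9.46 CPM in the 6 SB×SB embryos and 0 to 0.124 CPM in the 6 PL×PL embryos (adjusted p = 2.12e-04), and the PL×PL libraries of letter A had 6.55, 5.77 and 6.38 CPM. ccdc122, which encodes a coiled-coil protein, had 2.87 to 6.10 CPM in SB×SB embryos and 0.120 to 0.316 CPM in PL×PL embryos (log2 fold change 4.41 ± 0.67, adjusted p = 6.12e-05). In letter A, ccdc122 had 0.120, 6.44 and 0.179 CPM in the libraries labelled H1502, H1503 and H1504. Those labelled H1509, H1513 and H1516 had 2.70, 5.83 and 0.379 CPM, so that H1516-A lay near its labelled siblings. ccdc122 was called in the same direction at 200 τs, with a log2 fold change of 3.72 (adjusted p = 5.22e-04). Single embryos overlapped then, with 0.0603 to 5.795 CPM of ccdc122 in SB×SB and 0.0695 to 0.391 CPM in PL×PL. LOC112080863 overlapped at 200 τs too, with 0 to 8.58 CPM in SB×SB and 0 to 3.845 CPM in PL×PL embryos.

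LOC111958211 and LOC111979690, both without a name, had log2 fold changes of 4.29 ± 0.74 and 3.10 ± 0.54. LOC111979690 had 9.97 to 12.9 CPM in the 6 SB×SB embryos, whereas the PL×PL embryos ranged from 0.0601 to 4.24 CPM. dnah3, a heavy chain of the axonemal dynein that moves cilia, was uneven among SB×SB families: H1504-B and C had 7.24 and 6.55 CPM, H1502-B and C 3.66 and 1.45 CPM and H1503-B and C 0.681 and 0.402 CPM, against 0.190 to 0.365 CPM in PL×PL embryos (log2 fold change 3.43 ± 0.53, adjusted p = 8.07e-05). H1503 lay just above the PL×PL embryos. In letter A, dnah3 had 2.52, 0.421 and 0.239 CPM in the libraries labelled H1502, H1503 and H1504, H1502-A lying between its labelled siblings. Those labelled H1509, H1513 and H1516 had 3.62, 0.243 and 3.28 CPM.

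Among the mRNAs lower in SB×SB, LOC112073516 was at 0 in all 6 SB×SB embryos of letters B and C, against 2.67 to 4.44 CPM in the 6 PL×PL embryos (adjusted p = 9.51e-06), so no fold is given. At 200 τs it had at most 0.246 CPM in SB×SB and 1.25 to 4.19 CPM in PL×PL embryos. LOC111964921 had 0.539 to 1.21 CPM in SB×SB embryos and 17.9 to 23.2 CPM in PL×PL embryos (log2 fold change -4.73 ± 0.70, adjusted p = 4.74e-05). In that row the libraries labelled SB×SB of letter A had 20.3, 12.3 and 22.5 CPM, H1503-A with them. Those labelled PL×PL had 0.505 to 0.693 CPM. At 200 τs the embryos overlapped in LOC111964921, with 0.355 to 14.6 CPM in SB×SB and 0.594 to 27.7 CPM in PL×PL.

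LOC112069671 had 5.14 to 26.1 CPM in SB×SB embryos, H1502-C being the highest, and 41.6 to 50.1 CPM in PL×PL embryos (log2 fold change -2.05 ± 0.32, adjusted p = 1.01e-04). It differed again at 200 τs, with 5.87 to 15.8 CPM in SB×SB and 51.3 to 71.03 CPM in PL×PL embryos. tbc1d8b, which encodes a regulator of Rab proteins in vesicle traffic, had 0.928 to 27.5 CPM in SB×SB embryos and 27.7 to 32.8 CPM in PL×PL embryos, so that H1502-B all but touched the PL×PL range. Its log2 fold change was -1.22 ± 0.33 (adjusted p = 0.0684), and it was -1.13 (adjusted p = 0.290) when family H1504 was left out too.

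**Figure D2:**
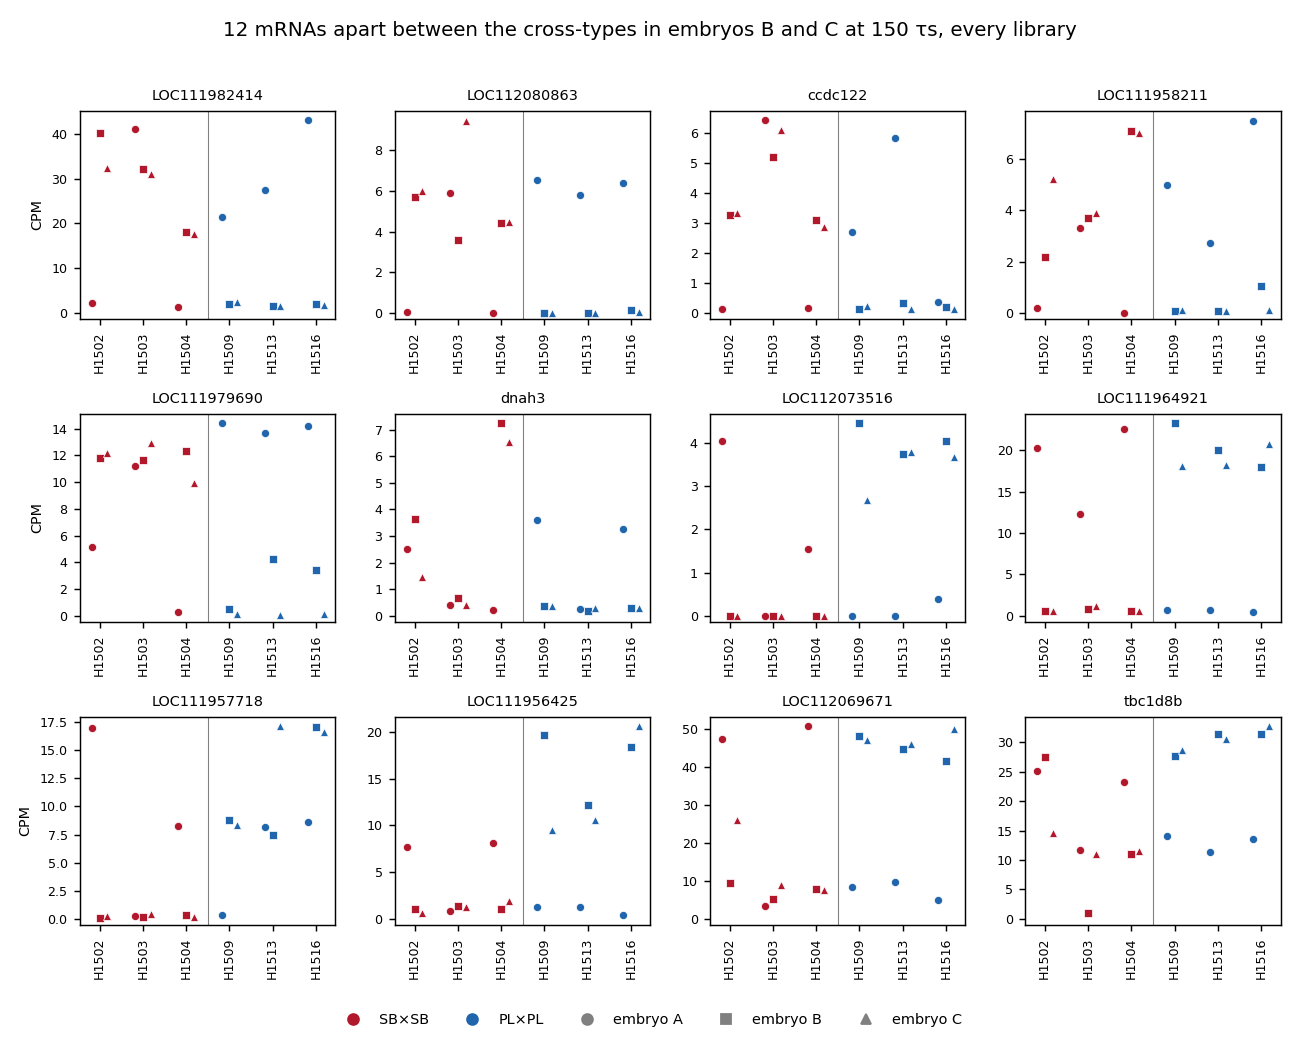
CPM of 12 mRNAs in every library at 150 τs by labelled family, with SB×SB in red on the left and PL×PL in blue on the right, and circles, squares and triangles for letters A, B and C. They were chosen because the 6 SB×SB embryos of letters B and C lie apart from the 6 PL×PL embryos. In LOC111982414 the circles of H1502 and H1504 lie at 2.22 and 1.31 CPM and those of the 3 PL×PL families at 21.4 to 43.0 CPM.

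Genes of known function with smaller differences were also among these 80 and 58 mRNAs. slc3a2, the heavy chain of several amino acid transporters, had 41.5 to 65.5 CPM in the 6 SB×SB embryos and 29.2 to 40.3 CPM in the 6 PL×PL embryos (log2 fold change 0.71 ± 0.17, adjusted p = 0.0322). slc12a2, the sodium, potassium and chloride cotransporter, averaged 37.4 CPM in SB×SB and 50.4 CPM in PL×PL embryos (log2 fold change -0.43 ± 0.12, adjusted p = 0.0629). setx, an RNA and DNA helicase, averaged 51.9 CPM in SB×SB and 73.2 CPM in PL×PL embryos (log2 fold change -0.50 ± 0.12, adjusted p = 0.0274). Without letter A and family H1504 the calls of setx (log2 fold change -0.34) and slc12a2 (-0.24) were lost and that of slc3a2 was kept (adjusted p = 0.0795).

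The 15 mRNAs did not separate the cross-types embryo by embryo. In 14 of them the high values lay in 1 or a pair of embryos of a single family: 10 of the 11 mRNAs higher in SB×SB were high in the siblings B and C of family H1504 or, for igdcc3, mainly in C, and the 4 mRNAs lower in SB×SB were high in siblings B and C of 1 PL×PL family, H1509 or H1516. Without the embryos H1504-B and H1504-C no mRNA passed the test, and 1198 had an unadjusted p under 0.05. The log2 fold changes of the 4 mRNAs lower in SB×SB were then -1.13 for LOC111961924, -2.87 for LOC112072916, -2.45 for LOC111952275 and -2.06 for LOC111952201, about as large as with all libraries. Within letter A alone, which holds none of these pairs, the log2 difference of the 15 mRNAs was at most 0.39 in size, against up to 1.85 within letter B and 1.66 within letter C. The letter A values are under labels that 5 of the 6 libraries did not match. Without the letter A libraries all 15 passed, though they had been chosen on values that include the other 12 libraries. When family H1504 was left out as well, 5 of them still passed, namely LOC111976284, higher, and the 4 mRNAs lower in SB×SB. Also without letter A, 1 of the 15 was called with sibling counts summed per family and 0 with the 12 embryos fitted alone. With DESeq2 all 15 were called.

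**Figure D3:**
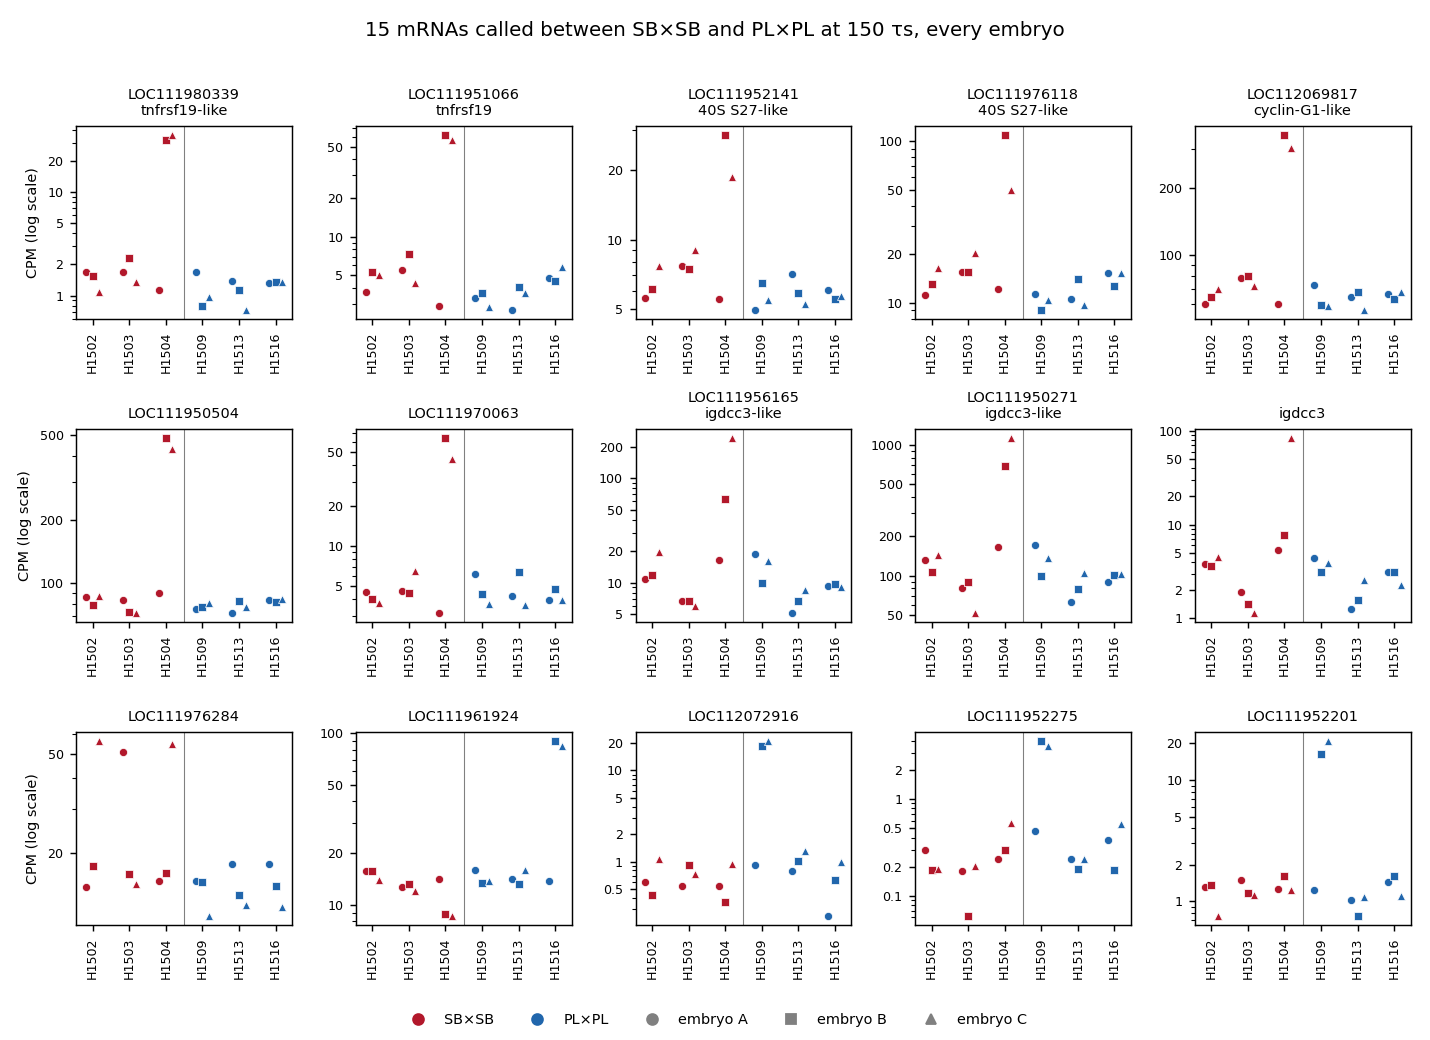
CPM on a log axis of the 15 mRNAs called between SB×SB (red, left) and PL×PL (blue, right) at 150 τs, 1 point for each embryo, by family, with circles, squares and triangles for the siblings A, B and C. In 10 panels the highest embryos are H1504-B and H1504-C, in 4 panels they are siblings B and C of 1 PL×PL family, and in LOC111976284 they are 3 embryos of 3 SB×SB families.

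Both rows named for TNFRSF19, a receptor of the tumour necrosis factor family known in mammals from embryonic epithelia and the nervous system, were higher in SB×SB. LOC111980339 (TNFRSF19-like) stood at 31.8 and 35.8 CPM in H1504-B and H1504-C, at 1.07 to 2.29 CPM in the other 7 SB×SB embryos and at 0.722 to 1.69 CPM in the 9 PL×PL embryos (medians of 1.68 and 1.32 CPM). The library labelled H1504-A, at 1.13 CPM, lay inside the PL×PL range. The log2 fold change was 2.87 ± 0.53 (SE; adjusted p = 0.0199), and it was 0.37 (adjusted p = 1) without H1504-B and H1504-C. Without letter A the log2 fold change was 3.55 (adjusted p = 9.91e-04). In LOC111951066 (TNFRSF19) the pair had 62.1 and 56.1 CPM, the other SB×SB embryos 2.87 to 7.30 CPM and the PL×PL embryos 2.67 to 5.81 CPM. Its log2 fold change was 2.11 ± 0.41 (adjusted p = 0.0240). The ranges of the other 7 SB×SB embryos and of the PL×PL embryos overlapped in both rows.

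Further rows were high in the same pair of embryos. Cyclin G1 is a direct transcriptional target of p53 in mammals, and the cyclin-G1-like mRNA LOC112069817 had 348 and 304 CPM in H1504-B and H1504-C, 60.05 to 80.3 CPM in the other SB×SB embryos and 56.2 to 73.2 CPM in PL×PL embryos (log2 fold change 0.98 ± 0.22, adjusted p = 0.0900). Of the 2 rows named 40S ribosomal protein S27-like, a name that covers both a ribosomal protein and a relative of it that p53 induces in mammals, LOC111976118 had 109.5 and 49.8 CPM in the pair. It had 11.2 to 20.4 CPM in the other SB×SB embryos and 9.002 to 15.3 CPM in PL×PL embryos (log2 fold change 1.28 ± 0.28, adjusted p = 0.0787). In both rows the pair was thus higher than any other embryo of either cross-type.

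LOC111952141, the other S27-like row, had 28.5 and 18.6 CPM in the pair, 5.49 to 9.05 CPM in the other SB×SB embryos and 4.93 to 7.05 CPM in PL×PL embryos (log2 fold change 0.88 ± 0.19, adjusted p = 0.0579). It was 1 of the 3 called mRNAs whose SB×SB family means all lay above the PL×PL family means, together with LOC111980339 and LOC111976284. Without the pair its log2 fold change was 0.26. Reads shared between such near-identical rows could have been split or dropped in counting. The study gives the counting settings as -p -B -C and does not state in words how shared reads were handled.

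LOC111950504 and LOC111970063, which carry no name, followed the same embryos. LOC111950504 had 488 and 434 CPM in the pair, 72.4 to 89.4 CPM in the other SB×SB embryos and 72.02 to 84.4 CPM in PL×PL embryos (log2 fold change 1.07 ± 0.24, adjusted p = 0.0900). LOC111970063 had 64.2 and 44.3 CPM in the pair, 3.16 to 6.57 CPM in the other SB×SB embryos and 3.67 to 6.39 CPM in PL×PL embryos (log2 fold change 1.76 ± 0.40, adjusted p = 0.0900). Without the pair the log2 fold changes were 0.04 and -0.04, so that the second changed sign.

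The igdcc3 family gave the largest counts. igdcc3 encodes a cell-surface protein of the immunoglobulin superfamily that in mouse embryos marks neural tissue, and 3 rows of the table carry the name. LOC111950271 (igdcc3-like) had 689 and 1139 CPM in H1504-B and H1504-C, 166 CPM in H1504-A, 51.7 to 144 CPM in the other 2 SB×SB families and 63.0 to 172 CPM in PL×PL embryos (log2 fold change 1.45 ± 0.30, adjusted p = 0.0503). LOC111956165 (igdcc3-like) had 63.4 and 244 CPM in the pair, 6.04 to 19.6 CPM in the other SB×SB embryos and 5.11 to 18.7 CPM in PL×PL embryos (log2 fold change 2.05 ± 0.40, adjusted p = 0.0220). In these rows H1504-C was the higher of the pair.

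The row with the symbol igdcc3 had 84.5 CPM in H1504-C alone, 7.84 CPM in H1504-B, 1.14 to 5.31 CPM in the other SB×SB embryos and 1.28 to 4.39 CPM in PL×PL embryos (log2 fold change 2.17 ± 0.44, adjusted p = 0.0355). Without H1504-B and H1504-C the log2 fold changes of LOC111950271, LOC111956165 and igdcc3 were 0.06, 0.11 and 0.15. The call of igdcc3 rested on 1 library, since without H1504-C its log2 fold change was 0.40 (adjusted p = 1) and without H1504-B it was 2.24 (adjusted p = 0.0688).

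LOC111976284, a row with no name, was the exception among the 11. It had 56.4 CPM in H1502-C, 50.8 CPM in H1503-A and 54.5 CPM in H1504-C, 1 embryo in each SB×SB family, and 14.6 to 17.7 CPM in the other 6 SB×SB embryos. The 9 PL×PL embryos had 11.2 to 18.1 CPM, so the other 6 overlapped with them. The log2 fold change was 0.98 ± 0.22 (adjusted p = 0.0787), and 0.88 without H1504-B and H1504-C, where the adjusted p was no longer under 0.1. Without letter A the log2 fold change was 1.19 ± 0.26 (adjusted p = 0.0128). The 18 hybrid embryos had 12.5 to 17.9 CPM at this time.

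The 4 mRNAs lower in SB×SB, none of which carries a name, were set by PL×PL siblings B and C. LOC112072916 had 0.359 to 1.07 CPM in SB×SB embryos, against 18.6 and 21.3 CPM in H1509-B and H1509-C and 0.253 to 1.32 CPM in the other 7 PL×PL embryos (log2 fold change -2.89 ± 0.56, adjusted p = 0.0220). LOC111952201 had 0.758 to 1.62 CPM in SB×SB embryos, against 16.3 and 21.1 CPM in the same PL×PL pair and 0.759 to 1.61 CPM in the other PL×PL embryos (log2 fold change -2 ± 0.43, adjusted p = 0.0579). In both rows the library labelled H1509-A lay with the rest.

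LOC111952275 was the least abundant of the 15, with 0.0619 to 0.561 CPM in SB×SB embryos, against 4.01 and 3.52 CPM in H1509-B and H1509-C and 0.186 to 0.550 CPM in the other PL×PL embryos (log2 fold change -2.11 ± 0.45, adjusted p = 0.0538). LOC111961924 had 8.60 to 15.7 CPM in SB×SB embryos, against 90.3 and 83.9 CPM in H1516-B and H1516-C and 13.3 to 16.0 CPM in the other PL×PL embryos (log2 fold change -1.26 ± 0.23, adjusted p = 0.0199). Left out in turn, family H1509 moved the log2 fold change of LOC112072916 to -0.29 and that of LOC111952201 to 0.11, and family H1516 moved that of LOC111961924 to -0.17.

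The p53 list covered genes that respond to or restrain p53, the transcription factor activated by DNA damage and other stress. It had 10 measured members, of which 3 were called higher, the cyclin-G1-like and the 2 S27-like rows, and none was called lower, beside 11 and 4 of 40311 mRNAs tested. Its median log2 fold change was 0.24, beside -0.01 over all mRNAs tested. The list was chosen with these results in view, and its count is no independent evidence. Without letter A, 4 of the 10 were called higher and none lower, beside 0.521% and 0.38% of all mRNAs, with a median log2 fold change of 0.31, and of the 4 none was called when family H1504 was left out as well.

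mdm2, the ubiquitin ligase that marks p53 for degradation and is itself induced by p53, had 59.0 and 49.7 CPM in H1504-B and H1504-C, 12 to 15.9 CPM in the other SB×SB embryos and 12.5 to 17.6 CPM in PL×PL embryos (log2 fold change 0.66 ± 0.21, unadjusted p = 0.00216 and adjusted p = 0.791 in the edgeR fit). It was the fourth member called without letter A, with a log2 fold change of 0.98 ± 0.24 (adjusted p = 0.0376), and 0.05 without family H1504 too. mdm4, a related inhibitor of p53, had 14 and 14.8 CPM in the pair, 19.6 to 25.2 CPM in the other SB×SB embryos and 22.9 to 27.5 CPM in PL×PL embryos (log2 fold change -0.24 ± 0.09, adjusted p = 1). The pair thus held the highest mdm2 and the lowest mdm4 levels of the 18 embryos. The other measured members, ddb2 and xpc of DNA repair, the electron-transfer enzyme fdxr, the stress protein gene tp53inp1 and the RNA-binding zmat3, had log2 fold changes between -0.04 and 0.43 and did not pass the test.

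miR-34a, a microRNA whose gene p53 activates in mammals, was read in the small RNA libraries with the same labels. Those libraries were paired with the mRNA libraries by label and were not set against family profiles. Its zebrafish entry had 4.31 and 4.70 CPM in H1504-B and H1504-C (76 and 283 reads), 0.211 to 0.627 CPM in the other 7 SB×SB embryos and 0.146 to 0.399 CPM in the 9 PL×PL embryos (3 to 16 reads). These levels are given as a description, because the embryos were singled out from their mRNA values. The highest hybrid embryo at 150 τs had 0.616 CPM.

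H1504-B and H1504-C also had the lowest developmental index of the 18 embryos. This index is the mean log2 level of 200 mRNAs that were higher at 200 τs minus that of 200 mRNAs that were lower, both sets taken from hybrid embryos only, and it was -3.24 and -3.25 in the pair. The other 7 SB×SB embryos had -2.40 to -1.64 and the PL×PL embryos -2.92 (H1509-A) to -1.59. The library labelled H1509-A was most like family H1504, and the PL×PL embryos of letters B and C had -2.20 to -1.75. At 200 τs the siblings H1504-A, B and C had 0.56, 1.18 and 0.43, against 1.19 to 1.97 in the other SB×SB embryos and 1.42 to 1.83 in PL×PL embryos. The part of this index in the differences between the cross-types was not tested.

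**Figure D4:**
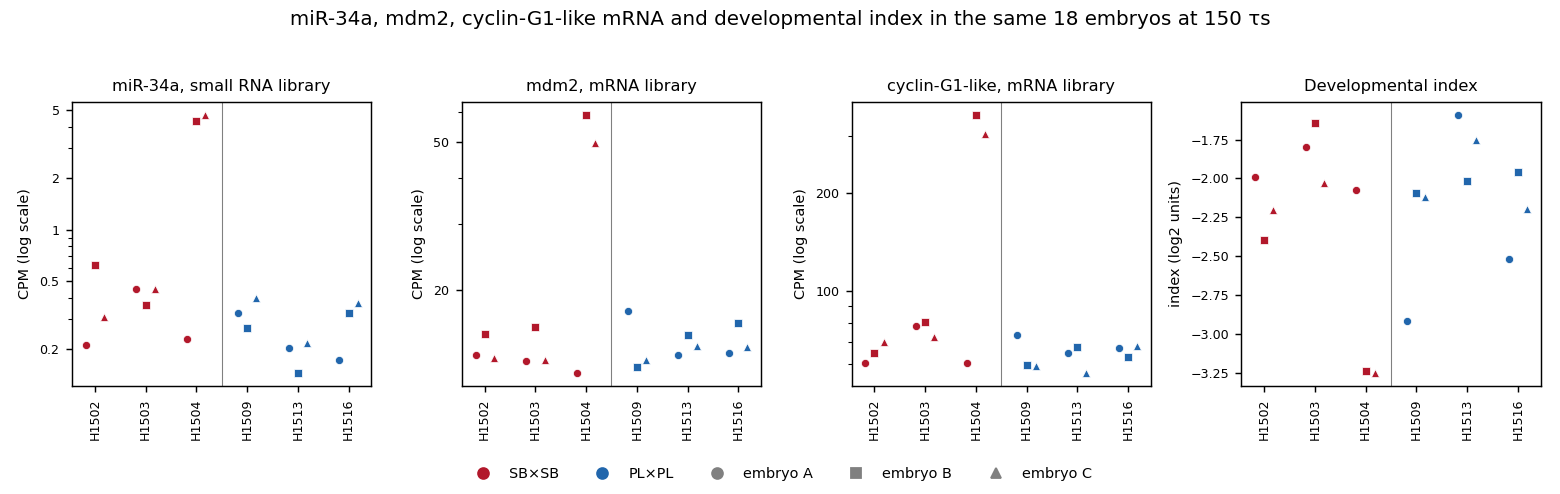
miR-34a, mdm2 and cyclin-G1-like levels (CPM, log axes) and the developmental index (log2 units, lower meaning closer to the earlier stage) in the 18 embryos at 150 τs. SB×SB families are in red on the left and PL×PL families in blue on the right. Small RNA and mRNA libraries are paired by label. H1504-B and H1504-C have 4.31 and 4.70 CPM of miR-34a and an index of -3.24 and -3.25, and the libraries labelled H1504-A lie with the other embryos in every panel.

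The number of mRNAs that departed at least 2-fold from the mean of an embryo's siblings was 256 to 1584 in SB×SB embryos (median 640) and 258 to 959 in PL×PL embryos (median 339). H1504-B had 718 and H1504-C 1014, whereas the highest count, 1584, belonged to the library labelled H1504-A. Over the 28812 mRNAs with a mean of at least 1 CPM, the median share of the sum of squares of log2 levels was 2.53% between the cross-types, 22.3% between families of a cross-type and 72.3% between siblings. These parts had 1, 4 and 12 degrees of freedom, so a larger share does not by itself show larger variation. These shares and the counts of departures at 150 τs include letter A libraries that were most like a family of the other cross-type. The medians at 200 τs were 11.1%, 30.2% and 49.4%, and they are not to be set against those of 150 τs. Without letter A at 150 τs they were 10.2%, 39.4% and 43.5% over 28771 mRNAs, but with fewer siblings in each family, so that these shares are not to be compared with those of all 18 libraries.

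Family means were compared next, since a difference between cross-types should be seen in every family. The 3 SB×SB family means lay above the 3 PL×PL family means for 1595 mRNAs (3.96% of those tested) and below them for 1822 (4.52%). Among the 28812 mRNAs with at least 1 CPM the numbers were 1188 higher (4.12%) and 1165 lower (4.04%). The split between higher and lower, 46.7% higher, depended on the scaling and on the filter: 55.3% were higher with relative log expression size factors, and 56.9% with no filter on low counts. With 3 families on each side an exact permutation test over families cannot give a two-sided p below 0.1. Without letter A the family means lay apart for 3956 mRNAs higher (9.81%) and 2862 lower (7.1%), more than with all libraries.

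The median log2 fold change was 0.18 among the 1595 higher mRNAs and -0.30 among the 1822 lower ones, while the median absolute log2 fold change over all mRNAs tested was 0.10. At 200 τs, in other embryos of the same families, family means did not overlap for 4145 mRNAs higher (10.3%) and 4891 lower (12.1%) in SB×SB. Of the 1595 higher at 150 τs, 422 (26.5%) were again apart in the same direction and 67 (4.2%) in the opposite direction. Of the 1822 lower, 365 (20%) were apart in the same direction and 69 (3.79%) in the opposite. By the edgeR test at 200 τs, which called 8.7% of mRNAs higher and 8.85% lower, 385 of the 1595 (24.1%) were called higher and 38 (2.38%) lower, and 283 of the 1822 (15.5%) were called lower and 50 (2.74%) higher. The families were the same at both times, so these shares do not separate cross-type from family.

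Of the mRNAs with family means apart, a mean of at least 1 CPM and no call, the 6 with the smallest p in each direction were examined embryo by embryo, and none passed the test at 150 τs (adjusted p of 0.101 to 0.513). LOC112078907 had family means of 6.68, 11.7 and 7.78 CPM in H1502, H1503 and H1504, against 5.09, 5.66 and 5.01 CPM in H1509, H1513 and H1516 (log2 fold change 0.73 ± 0.19, adjusted p = 0.300). Single embryos spanned 4.75 to 16.7 CPM in SB×SB and 4.16 to 7.23 CPM in PL×PL and overlapped. At 200 τs its log2 fold change was 0.99 (adjusted p = 7.48e-04).

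LOC111965267 had family means of 12.9, 17 and 16.4 CPM in SB×SB and 10.1, 10.6 and 11.8 CPM in PL×PL (log2 fold change 0.51 ± 0.13, adjusted p = 0.189), with 10.2 to 19.9 and 7.16 to 17.3 CPM in single embryos. LOC112077234 had 9.91, 10.5 and 13.6 CPM in SB×SB families, against 7.16, 6.47 and 8.91 CPM in PL×PL families (log2 fold change 0.59 ± 0.16, adjusted p = 0.489). Both were called higher in SB×SB at 200 τs, with log2 fold changes of 0.44 (adjusted p = 0.0166) and 0.53 (adjusted p = 0.0303).

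LOC111970262 had the largest fold of the 12, with family means of 3.00, 4.88 and 7.01 CPM in SB×SB and 1.27, 1.14 and 1.66 CPM in PL×PL (log2 fold change 1.90 ± 0.53, adjusted p = 0.5). Its levels differed between letters: PL×PL embryos A had 3.70, 3.04 and 4.29 CPM, whereas PL×PL embryos B and C had 0.0606 to 0.489 CPM, and SB×SB embryos A of H1502 and H1504 had 0.721 and 0.179 CPM. Without letter A the log2 fold change was 4.96 ± 0.63 (adjusted p = 2.18e-06). The log2 difference was -1.2 within letter A, 3.35 within letter B and 2.91 within letter C, and 5 of the 6 libraries of letter A were most like a family of the other cross-type. At 200 τs the 9 SB×SB embryos had 1.27 to 6.57 CPM and the 9 PL×PL embryos 0 to 1.16 CPM without overlap, and the log2 fold change was 3.62 (adjusted p = 5.16e-04).

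LOC112070227 and LOC111953665 were raised in family H1504 above all. LOC112070227 had 698 and 614 CPM in H1504-B and H1504-C, 189 to 233 CPM in the other SB×SB embryos and 154 to 219 CPM in PL×PL embryos (log2 fold change 0.68 ± 0.16, adjusted p = 0.124). LOC111953665 had 33.8 and 41 CPM in the pair, 17.3 to 24.8 CPM in the other SB×SB embryos and 16.2 to 20.1 CPM in PL×PL embryos (log2 fold change 0.42 ± 0.12, adjusted p = 0.513). Neither was called at 200 τs, where the log2 fold changes were 0.11 and 0.03.

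Among the 6 rows lower in SB×SB, LOC111956424 had family means of 10.9, 7.56 and 8.34 CPM in SB×SB and 19.5, 13.3 and 16.4 CPM in PL×PL, and its log2 fold change was -0.88 ± 0.20 (adjusted p = 0.101). Its embryos spanned 5.80 to 12.8 CPM in SB×SB and 7.95 to 26.0 CPM in PL×PL. LOC111981653, listed as uncharacterized, had 16.6, 12.6 and 13.6 CPM in SB×SB families, against 20.1, 18.5 and 23.6 CPM in PL×PL families (log2 fold change -0.54 ± 0.13, adjusted p = 0.124). Within letter A the log2 difference of LOC111981653 was 0.10, since H1502-A and H1504-A had 23.3 and 22 CPM.

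LOC112073952 and LOC111961811, both without a name, had smaller differences. The family means of LOC112073952 were 8.56, 6.70 and 6.19 CPM in SB×SB and 10.2, 9.67 and 9.78 CPM in PL×PL (log2 fold change -0.46 ± 0.11, adjusted p = 0.15). Those of LOC111961811 were 6.64, 5.39 and 5.59 CPM in SB×SB and 8.89, 7.97 and 9.03 CPM in PL×PL (log2 fold change -0.55 ± 0.15, adjusted p = 0.468). Single embryos of the cross-types overlapped in both.

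The 2 rows with a gene symbol were stk32c, which encodes a serine/threonine kinase, and tmem25, which encodes a membrane protein of the immunoglobulin superfamily. stk32c had family means of 1.97, 1.54 and 1.72 CPM in SB×SB and 2.25, 2.71 and 2.54 CPM in PL×PL (log2 fold change -0.52 ± 0.14, adjusted p = 0.406). tmem25 had 0.728, 0.772 and 1.06 CPM in SB×SB families, against 1.75, 2.88 and 2.04 CPM in PL×PL families (log2 fold change -1.37 ± 0.37, adjusted p = 0.446), and the log2 difference was 0.48 within letter A, -1.64 within letter B and -1.63 within letter C. At 200 τs tmem25 was called lower in SB×SB (log2 fold change -1.32, adjusted p = 0.00656), as was LOC111981653 (-0.47, adjusted p = 0.0112).

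By the test at 200 τs, 7 of these 12 mRNAs were called in the same direction, beside the 8.7% and 8.85% of all mRNAs called higher and lower, and the family means of 6 of the 12 were apart in the same direction. These 7 were LOC111965267, LOC112078907, LOC112077234 and LOC111970262, higher, and LOC111981653, tmem25 and LOC111961811, lower in SB×SB. Without letter A, 9 of the 12 passed the test, beside 0.9% of all mRNAs, but the 12 had been chosen on values that include the same libraries of letters B and C, so this is no independent evidence. LOC112073952, stk32c and LOC111961811 did not pass (adjusted p of 0.117, 0.160 and 0.160).

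**Figure D5:**
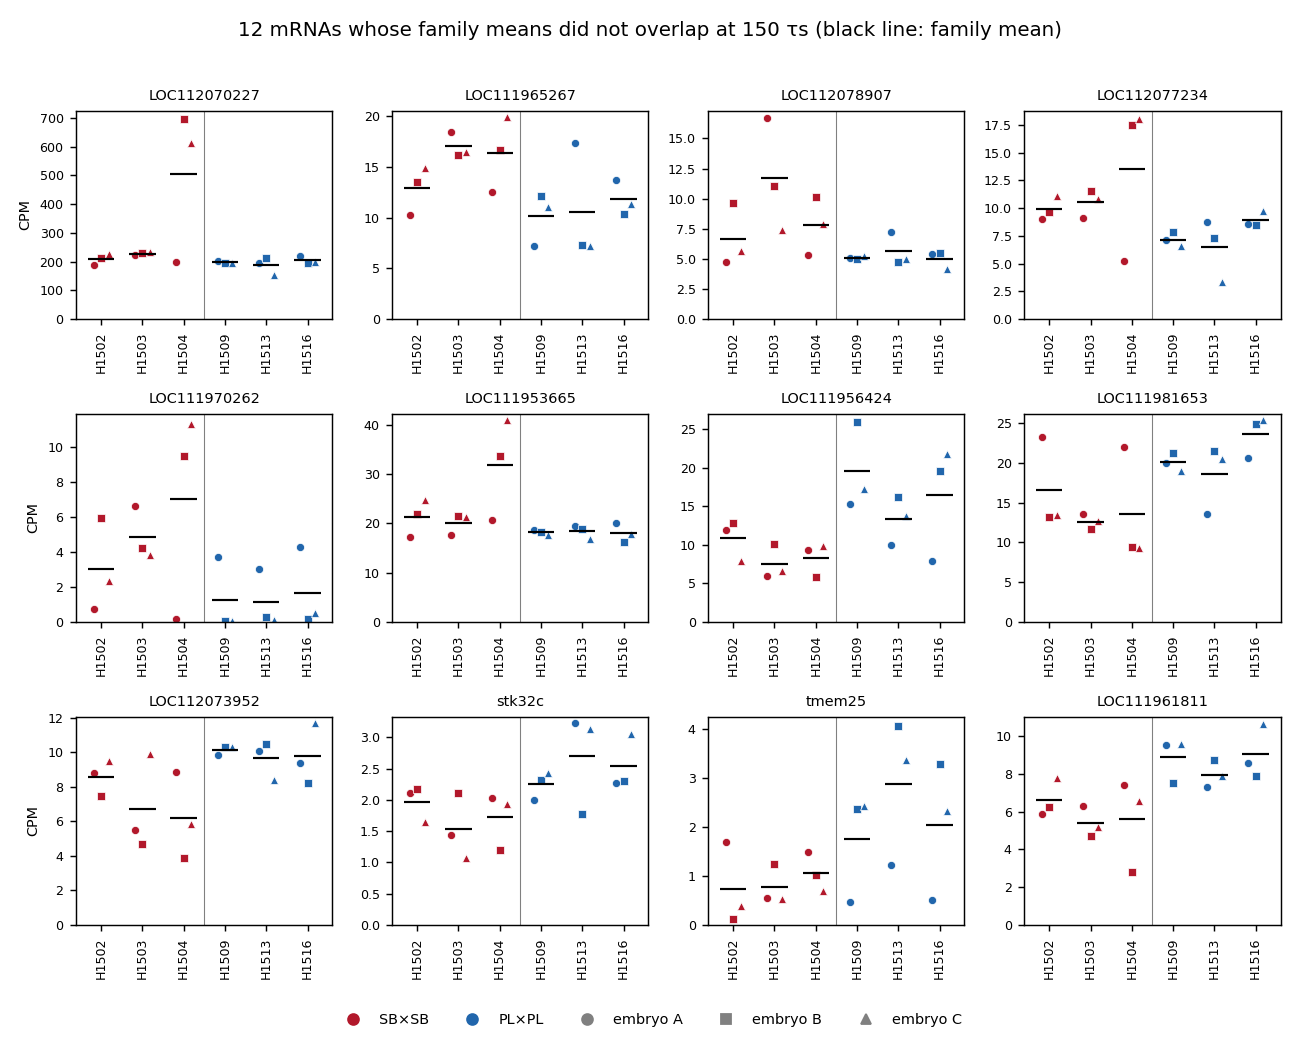
CPM of 12 mRNAs whose 3 SB×SB family means did not overlap with the 3 PL×PL family means at 150 τs, with SB×SB in red on the left, PL×PL in blue on the right, 1 point for each embryo and a black line at each family mean. Embryos of the cross-types overlap in every panel, and in LOC111970262 and tmem25 the circles, embryos A, of all families but H1503 lie outside the range of their siblings.

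All 9 embryos labelled as one cross-type lay outside the range of the other for 2 of the 40311 mRNAs (0.00496%). Among so many rows a few such separations can arise by chance. Of the 6 letter A libraries in these groups, 1 was most like its own family, and the others were most like a family of the other cross-type. LOC111976725 had 3.13 to 3.77 CPM in SB×SB embryos, with a mean of 3.40 ± 0.234 (SD, n = 9), and 2.59 to 2.93 CPM in PL×PL embryos, with a mean of 2.72 ± 0.127 (SD, n = 9). Its log2 fold change was 0.32 ± 0.11 (unadjusted p = 0.00632, adjusted p = 1 in the edgeR fit), and its range in the 18 hybrid embryos, 1.78 to 3.43 CPM, overlapped with both. Without letter A the log2 fold change was 0.38 (adjusted p = 0.298). At 200 τs the log2 fold change was 0.06 and the ranges overlapped. The other mRNA, LOC111974900, was below the level of 1 CPM set for naming and was looked up after its values were seen. It had 0 to 0.24 CPM in SB×SB embryos and 0.243 to 0.823 CPM in PL×PL embryos (log2 fold change -1.81 ± 0.42, adjusted p = 0.124). It was called lower without letter A (log2 fold change -2.14 ± 0.54, adjusted p = 0.0434) and at 200 τs (-1.05, adjusted p = 0.0821).

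At 200 τs, 9 of the 15 mRNAs called at 150 τs were called in the same direction, 7 higher and 2 lower, against 8.7% and 8.85% of all mRNAs. The difference between the times was itself tested for each of the named mRNAs, and the lowest adjusted p of this interaction was 0.178. LOC111976284 had 14.9 to 49.0 CPM in SB×SB embryos at 200 τs, with 41.3 CPM in H1502-A, 41.3, 35.0 and 43.5 CPM in the 3 H1503 embryos and 49.0 CPM in H1504-A. The PL×PL embryos had 7.23 to 14.7 CPM, below all 9 SB×SB embryos (log2 fold change 1.31, adjusted p = 1.55e-04).

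The mRNAs that were high in H1504 at 150 τs were again uneven among the H1504 embryos of 200 τs. LOC111980339 had 9.89, 1.64 and 11.4 CPM in H1504-A, B and C at 200 τs, against 0.585 to 1.35 CPM in the PL×PL embryos (log2 fold change 1.80, adjusted p = 0.0282). The cyclin-G1-like LOC112069817 had 182, 83.2 and 197 CPM in these embryos (log2 fold change 0.59, adjusted p = 0.0652). The high siblings were A and C at 200 τs and B and C at 150 τs, which were separate embryos.

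The same siblings A and C of H1504 were high at 200 τs for mdm2, with 26.2, 11.6 and 25.1 CPM in A, B and C, and for miR-34a, with 1.53, 0.680 and 2.63 CPM (66, 31 and 104 reads). PL×PL embryos had 0.256 to 0.629 CPM of miR-34a at that time. The called rows LOC111951066, LOC111952141, LOC111976118 and LOC111970063 had log2 fold changes of 1.19, 0.56, 0.73 and 1.2 at 200 τs and were called there too, whereas LOC111950504 was not (0.54, adjusted p = 0.129).

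The igdcc3 rows behaved otherwise. LOC111950271 had 4.94 to 10.1 CPM in the SB×SB, PL×PL and hybrid embryos at 200 τs, against 51.7 CPM or more in each at 150 τs, and its log2 fold change at 200 τs was -0.13 (adjusted p = 0.856). igdcc3 had at most 0.621 CPM and LOC111956165 at most 1.33 CPM at 200 τs. Of the mRNAs lower in SB×SB, LOC112072916 was again high in family H1509, with 16.9, 1.77 and 22.2 CPM in A, B and C (log2 fold change -2.08, adjusted p = 0.00601), as was LOC111952201, with 12.8, 10.7 and 13.2 CPM (log2 fold change -1.83, adjusted p = 0.00329). LOC111961924 had a log2 fold change of 0.06 at 200 τs.

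The measured genes of the pharyngeal skeleton showed no called difference at 150 τs. Their list held 42 symbols, to which 17 measured rows matched, so part of the list was not seen. Of the 17 measured members of the cartilage and bone list none was called, none had an unadjusted p under 0.05, and the median log2 fold change was -0.01. Without letter A none of the 17 was called either, 4 had an unadjusted p under 0.05, beside 12.1% of all mRNAs, and the median was 0.03. With all libraries the family means of 1 member were higher and those of 1 member lower in SB×SB without overlap. runx3, a transcription factor of cartilage and bone cells, had 7.23 ± 1.14 CPM in SB×SB embryos and 7.92 ± 0.821 CPM in PL×PL embryos (SD, n = 9 each; log2 fold change -0.13 ± 0.10).

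dlx2, a homeobox gene that patterns the pharyngeal arches, had 18.4 ± 2.29 CPM in SB×SB embryos and 17.3 ± 1.88 CPM in PL×PL embryos (SD, n = 9 each; log2 fold change 0.09 ± 0.09). Without letter A it was 0.27 ± 0.12 (adjusted p = 0.352), and at 200 τs it was called higher in SB×SB (log2 fold change 0.31, adjusted p = 0.0284). trps1, a zinc finger gene of growing cartilage, had a log2 fold change of -0.12 ± 0.11, and -0.23 ± 0.13 without letter A. At this depth and spread, differences of this size were not told from zero.

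None of the 5 neural crest and pigment genes was called. foxd3, an early neural crest factor, had 21.6 ± 7.04 CPM in SB×SB embryos and 24.8 ± 3.71 CPM in PL×PL embryos (SD, n = 9 each; log2 fold change -0.20 ± 0.13). Without letter A it was -0.45 ± 0.15 (adjusted p = 0.189), and it was called lower in SB×SB at 200 τs (-0.41, adjusted p = 0.0251). None of the 5 skeletal muscle genes was called at 150 τs, and 4 of them were called lower in SB×SB at 200 τs, beside 8.85% of all mRNAs. atp2a1, the calcium pump of fast muscle, had 55.5 ± 14.5 CPM in SB×SB embryos and 48.5 ± 14.1 CPM in PL×PL embryos (SD, n = 9 each; log2 fold change 0.19 ± 0.14, and -0.0183 without letter A), against -0.55 at 200 τs (adjusted p = 0.00813).

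The other lists held no call at 150 τs and no member with an unadjusted p under 0.05. They were 12 DNA damage checkpoint genes, 4 apoptosis genes, 13 cytosolic ribosomal proteins, 3 yolk and liver plasma proteins, 3 stress response genes and 2 genes each of heart, neurons, immune response and the circadian clock, with 1 lens gene. mre11, which processes broken DNA ends, had a log2 fold change of 0.10 ± 0.07, casp6, a caspase, 0.17 ± 0.12, and rps21, a ribosomal protein, 0.13 ± 0.11. The lens crystallin cryaa and lysozyme gene lyz had 0.24 ± 0.20 and 0.43 ± 0.29, and fgb, the fibrinogen beta chain made in liver, -0.30 ± 0.55. Without letter A none of the members of these lists was called, and 3 of the 12 DNA damage checkpoint genes, 1 apoptosis gene, 1 ribosomal protein, 1 heart gene and 1 immune gene had an unadjusted p under 0.05, a level that 12.1% of all mRNAs reached in that fit. The log2 fold changes without letter A were 0.22 for mre11, 0.24 for casp6, 0.38 for rps21, 0.31 for cryaa, 0.70 for lyz and -0.84 for fgb. The neural crest and muscle lists also held no call without letter A, with 2 and 1 members under that level.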

How the data were processed

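Whole-embryo mRNA and small RNA libraries of 4 cross-types at 150 and 200 τs were used as deposited. Per the labels and the study's methods, the mRNA reads came trimmed from the sequencing provider, and the authors checked them with FastQC, aligned them with STAR to a Salvelinus genome and counted read pairs per gene with featureCounts; the strand setting is not given in the sources used here. The deposited values are raw counts. The authors trimmed small RNA reads with cutadapt and counted them with miRDeep2 on miRBase entries of all species, so 1 read can count on several entries; the 72 normalized miRNA columns were left aside.

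Rows with at least 10 reads over the 72 mRNA libraries were kept (40311 of 42433). edgeR 4.0.16 (R 4.3.3) was run with TMM factors and a quasi-likelihood fit of 8 group means over all 72 libraries, with Benjamini-Hochberg adjustment over all rows, a threshold of 0.1 and SB×SB over PL×PL contrasts. Calls were checked on simulated data with independent libraries. The simulation held no family effect, no high sibling pairs and no mismatched labels, so it does not cover these. P-values treat siblings as replicates. Alternatives were relative log expression factors, 2 other filters, the 18 embryos alone, DESeq2 1.42.0, limma 3.58.1 voom with family as a random effect, summed siblings, the letter as a replicate block, and leaving out families. Leaving out single embryos, or H1504-B and H1504-C, was chosen after seeing the data. Within-letter log2 differences used CPM plus 0.5, as did the developmental index. Of 288 pairs of libraries within a group, 0 were identical. The letters were used as a block because the labels give them as sequencing batches, although the study's methods state that the mRNA libraries were sequenced together: deviations from group means correlated at -0.09 on average for embryos of other families with the same letter (45 pairs) and at -0.04 with another letter (90 pairs), over 18 embryos at 150 τs.

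The family profiles held the 500 mRNAs with the highest ratio of between-family to within-family variance at 200 τs. Each library's log2 levels (CPM plus 0.5) were centred, for each mRNA, on the mean over the libraries of 150 τs. They were correlated with the 12 family means of 200 τs, centred on the mean over families. In turn, libraries of 200 τs were correlated in the same way with means of letters B and C at 150 τs. The fit without the 12 letter A libraries of 150 τs, and its own alternatives, were also chosen after seeing the data.

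Named mRNAs were those called, the 6 with the smallest p in each direction among uncalled mRNAs with family means apart and at least 1 CPM, those with at least 1 CPM and 9 embryos of each cross-type apart, every p53 list member with at least 1 CPM, and up to 3 such members of each other list. The members and lists were chosen with earlier results of these data known. Of 5182 symbols in the table, 2640 were found in the RefSeq gene table, and the extracellular matrix list also had no measured member.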

Additional observations from a re-analysis of the deposited data

Results flagged for a closer look

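Single embryos that stood apart from the other 8 of their cross-type at 150 τs were found in 8 of 64 groups of values (12.5%). Chance gives about 1 in 20 only for groups not chosen by their values. Most of these groups were mRNAs chosen from the values of the same embryos, so the share shows no excess over chance. Among SB×SB embryos, H1504-C had 244.1 CPM of LOC111956165, with the nearest embryo at 63.43 CPM. The same embryo had 84.46 CPM of igdcc3, with the nearest at 7.839 CPM, and 0.561 CPM of LOC111952275, with the nearest at 0.3004 CPM. H1504-B had 109.5 CPM of LOC111976118, with the nearest embryo, its sibling H1504-C, at 49.8 CPM. Pairs of high siblings, as in most of the called mRNAs, are not found by this comparison with the nearest embryo.

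Among PL×PL embryos, H1513-C was lowest for LOC112070227, with 153.8 CPM against 193.9 CPM in the nearest, and for LOC112077234, with 3.308 CPM against 6.547 CPM. The library labelled H1513-A, most like family H1503, had 7.232 CPM of LOC112078907, with the nearest at 5.457 CPM. The library labelled H1509-A held 12837417 reads, the fewest of the 9, with the next at 15504543. No named mRNA passed the test of whether its difference between cross-types changed from 150 τs to 200 τs (edgeR interaction, lowest adjusted p of 0.178). That test kept the letter A libraries under their labels, and a missed threshold does not show equal differences.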

How the results depend on the processing

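The count of 15 called mRNAs was 15 with relative log expression factors and with no filter and 14 with a stricter filter. It was 8 with the replicate block, 25 with DESeq2, all 15 among them, 1 with sibling counts summed per family (955 at an unadjusted p under 0.05), 0 with the 18 embryos alone (1388), 0 with limma-voom and family as a random effect (1370) and 0 without H1504-B and H1504-C (1198). Leaving out a family or an embryo gave 0 to 36 calls: 0 without H1504, 5 without H1513, 9 without H1509, 27 without H1503 and 36 without H1502, and among embryos 3 without H1504-C, 5 without H1504-B, 6 without H1509-B, 7 without H1509-C, 7 without H1513-B, 9 without H1513-C, 24 without H1504-A and 32 without H1502-A. Of the 15, 0 remained without H1504 and 13 without H1502. The 3417 mRNAs with family means apart became 2830 to 8406. Without the letter A libraries of 150 τs, 363 mRNAs were called and 6818 had family means apart, and the log2 fold change turned to 0.0119 for xpc and -0.0183 for atp2a1. The block changed no direction among the named mRNAs.

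Without H1504-B and H1504-C the log2 fold change turned to -0.0393 for LOC111970063, -0.0768 for mdm2, 0.0583 for zmat3, 0.102 for gad2 and -0.0158 for hand2. With 1 family or embryo left out it ran over zero for LOC111956165 (-0.0076 to 2.56), igdcc3 (-0.032 to 2.69), LOC111950271 (-0.065 to 1.91), LOC111952201 (-2.49 to 0.11), mdm2 (-0.048 to 0.91), fdxr (-0.021 to 0.076), tp53inp1 (-0.014 to 0.078), zmat3 (-0.29 to 0.11), xpc (-0.084 to 0.077), gad2 (-0.32 to 0.12) and hand2 (-0.029 to 0.17). The causes were not tested. The 3 families of each cross-type limit what can be told: siblings come from the same cross, the same families were sampled at both times, and the calls rest on a spread estimated over all 72 libraries. At this depth rows under 1 CPM rest on few reads.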

Other observations

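nmu, which encodes the neuropeptide neuromedin U, was looked up after its values were seen. Its high values among the pure-cross libraries at 150 τs lay in family H1504 and in a library labelled PL×PL. At 150 τs it had 0, 34.0 and 36.8 CPM in the libraries labelled H1504-A, B and C and at most 0.201 CPM in the other SB×SB embryos, against 28.5 CPM in the library labelled H1509-A, which was most like family H1504, and at most 0.316 CPM in the other PL×PL embryos. Hybrid embryos reached 24.5 CPM in SB×PL and 59.7 CPM in PL×SB. Its log2 fold change at 150 τs was 1.37 ± 1.21 (unadjusted p = 0.262 in the edgeR fit). Without the letter A libraries it was called higher in SB×SB (log2 fold change 7.43 ± 2.04, adjusted p = 0.0789). With family H1504 left out as well it was not called (log2 fold change 0.61, adjusted p = 0.976). At 200 τs the 3 H1504 embryos had 21.2, 33.0 and 51.6 CPM, and PL×PL embryos had at most 1.18 CPM (log2 fold change 5.07, adjusted p = 0.0286).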
